A study of Homo sapiens with 2 samples.

Results

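Autophagy encloses cytoplasm in a double membrane, the autophagosome, and delivers it to the lysosome for breakdown. The genes described here build that membrane, load cargo into it, acidify the lysosome or control the transcription of these parts. The list named 53 genes, and a gene was taken as measured when at least 1 probe set of the array was assigned to it and to no other gene. That gave 52 of the 53 genes, with 128 probe sets, among 17689 genes measured in all. The exception was ATP6V1F, a subunit of the proton pump, which had no probe set of its own.

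The cells were LNCaP, a line from a human prostate carcinoma that responds to androgen, and their RNA was hybridised to Affymetrix U133 Plus 2.0 arrays. The shKDM4A culture had received lentivirus encoding a short hairpin RNA against KDM4A, a histone H3 lysine 9 and lysine 36 demethylase, and the control culture lentivirus with the empty pLKO.1 vector. Both cultures were LNCaP cells in serum-containing medium, both carried a lentiviral insert and both were harvested at day 3 after infection. The control vector held no hairpin, and the labels name 1 hairpin construct, so effects of any hairpin and of loss of KDM4A cannot be told apart.

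With a single array per group, no difference below has a replicate check, a p-value or a test, and the number of arrays sets how precise a value can be. Each deposited value was read as a log2 signal from which the mean of the 2 arrays had been taken away. The control value of a probe set is thus the shKDM4A value with its sign turned, and no signal level is known. A difference is the shKDM4A value minus the control value on the log2 scale, and a gene's difference is the mean over its probe sets. The ± SD beside a value describes how far the probe sets of that gene lie from each other and says nothing of the spread between cultures. Pooled over the genes that have several probe sets, this SD was 0.33. The median difference of all genes was 0.020, with quartiles of -0.14 and 0.18. Without signal levels no filter on expression was possible, so all genes may include genes that these cells did not express. The part of such genes in the comparisons below was not tested. KDM4A was lower by 2.26-fold in shKDM4A cells, with values of -0.45 and -0.73 on the shKDM4A array, against 0.45 and 0.73 on the control array. The cultures were bulk samples, so less RNA per cell and fewer cells holding a transcript cannot be told apart. Levels are lost, so the cell type could not be checked by presence of its markers. Of the 10 luminal prostate markers listed, 7 were found among the measured genes by the symbol listed. Their differences lay between -0.76 (TMPRSS2) and 0.48 (FOLH1), with a median of 0.11. ACPP, listed by an older symbol, was measured as ACP3 (-0.096 ± 0.38, 3 probe sets) and is not among the 7. Fibroblast and smooth muscle markers (9 of 10 measured) had a median of 0.060, leukocyte markers (3 of 7) 0.012 and embryonic kidney markers (3 of 6) -0.010. Of the 9 fibroblast and smooth muscle markers, 3 passed 1.5-fold upward, where 4.3% of all genes did, and none passed it downward. The 3 were COL3A1 (0.63 ± 0.68, 3 probe sets), COL1A1 (0.73 ± 0.76, 4 probe sets) and ACTA2 (2.14 ± 2.42, 2 probe sets), each with an SD above its mean. The ACTA2 probe sets differed by 3.85 and 0.43, and the gene ranked 12 from the highest of all genes. COL1A1 probe sets ran from 0.037 to 1.57 and those of COL3A1 from -0.065 to 1.30. The leukocyte and embryonic kidney lists had no gene 1.5-fold apart, and the part of such markers in the differences below was not tested.

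Autophagosome formation starts with the ULK kinase complex, which activates the PI3-kinase complex built around PIK3C3 and BECN1. The lipid made there recruits WIPI proteins and the ATG16L1 conjugation machinery, which attaches ATG8 proteins (the LC3 and GABARAP families) to the membrane. Cargo receptors bind ATG8 proteins, and the finished vesicle fuses with a lysosome that the vacuolar-type ATPase (V-ATPase) has acidified. The transcription factors TFEB, TFE3 and MITF bind promoters of many lysosomal and autophagy genes.

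Of the 52 genes, 19 lay within the quartiles of all genes, where 8845 of all 17689 genes did. At 2-fold or more apart stood 3 members. WIPI1 was 3.07-fold higher in shKDM4A cells, ATP6V1A was 2.58-fold lower and BECN1 was 2.46-fold lower. The 1 gene at least 2-fold higher is 1.92% of the 52, where 1.16% of all genes were that much higher, and the 2 genes at least 2-fold lower are 3.85%, where 1.44% of all genes were that much lower. At 1.5-fold, 3 members were higher (WIPI1, ATG4A and TFEB) and 3 were lower (ATP6V1A, BECN1 and CTSB), or 5.77% each way, where 4.3% of all genes were higher and 4.38% lower. Each of these shares rests on 1 to 3 genes. With the median difference of all probe sets subtracted, 2 members were 1.5-fold higher, as TFEB then lay at 0.58, just under the log2 value of 1.5-fold. With shared probe sets (suffix _s_at or _x_at, whose probes several transcripts share) left out, 4 members were 1.5-fold higher and 2 were lower, as ATP6V0E1 joined and BECN1 dropped out. Above 0 lay 33 members (63.5%), where 53.7% of all genes did, and below 0 lay 19 (36.5%), where 46.3% of all genes did. The median over the members was 0.12.

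**Figure D1:**
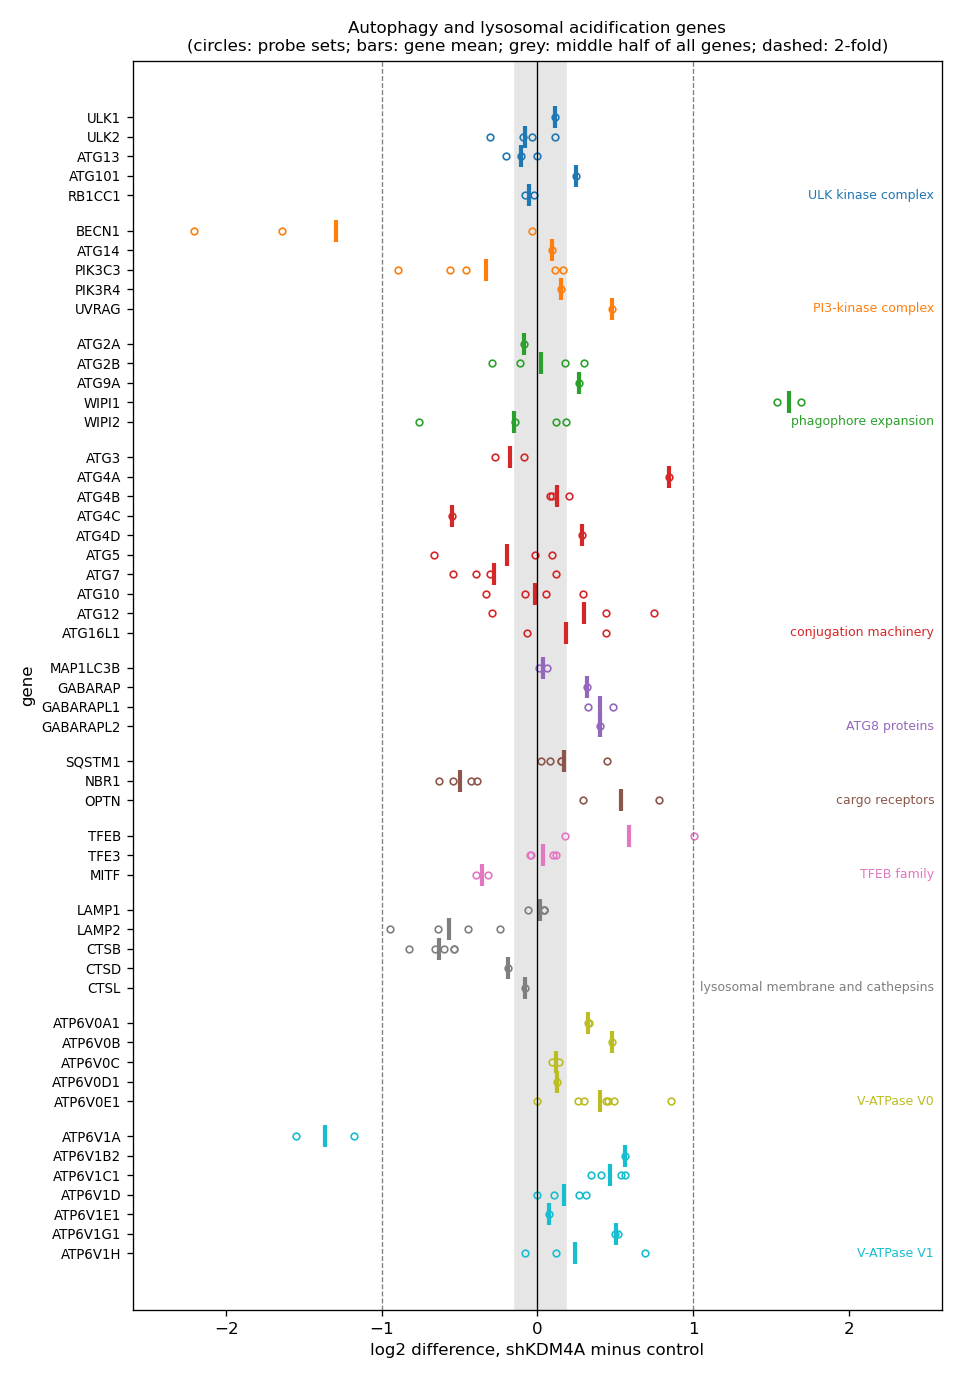
Log2 difference, shKDM4A minus control, of each measured gene (rows, by functional group), with circles for probe sets and bars for gene means. The grey band spans the quartiles of all genes (-0.14 to 0.18) and dashed lines mark 2-fold. WIPI1 lies at the right, BECN1 and ATP6V1A at the left, and the remaining V-ATPase genes lie between 0.073 and 0.56.

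The 5 genes of the ULK kinase complex lay close to 0, between -0.10 and 0.25, with none 1.5-fold apart and a median of -0.052. Of these, 4 lay within the quartiles of all genes. ATG101, which stabilises ATG13 in the complex, had 0.12 on the shKDM4A array and -0.12 on the control array, a difference of 0.25 over 1 probe set. ULK1, the kinase that starts autophagy, differed by 0.11, again over 1 probe set. ULK2, its paralog, lay at -0.080 ± 0.17 over 4 probe sets, ATG13, the regulatory subunit, at -0.10 ± 0.099 over 3 and the scaffold RB1CC1 at -0.052 ± 0.041 over 2.

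The PI3-kinase complex held the second lowest member. BECN1 encodes beclin 1, the subunit that most regulators of the lipid kinase bind. Its probe sets read -0.82, -1.10 and -0.017 on the shKDM4A array, against 0.82, 1.10 and 0.017 on the control array. So 2 probe sets differed by -1.64 and -2.21, more than 3-fold each, and the third by -0.034, close to 0. The gene mean was -1.30 ± 1.13 (SD over 3 probe sets), which ranked 137 from the lowest of 17689 genes. Both low probe sets carry the _s_at suffix, which marks probes shared by several transcripts, variants of 1 gene included, and the third does not. When such shared probe sets were left out the BECN1 difference was -0.034, and with the median over probe sets it was -1.64.

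The partners of BECN1 did not share its difference in size. PIK3C3, the catalytic lipid kinase, lay at -0.33 ± 0.45 over 5 probe sets, of which 3 read between -0.89 and -0.46 and the other two 0.11 and 0.16. PIK3R4, the regulatory kinase-like subunit, differed by 0.15 and ATG14, which directs the complex to the site of autophagosome formation, by 0.096, each over 1 probe set. UVRAG, which takes the place of ATG14 in the endosomal form of the complex, had 0.24 on the shKDM4A array and -0.24 on the control array, a difference of 0.48 over 1 probe set. The median of the 5 genes was 0.096.

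Among the genes that expand the membrane, WIPI1 was the highest member of the whole list. WIPI1 binds the lipid product of PIK3C3 at the growing membrane. Its 2 probe sets read 0.85 and 0.77 on the shKDM4A array, against -0.85 and -0.77 on the control array. Both were higher in shKDM4A cells by nearly the same amount, for a mean of 1.62 ± 0.11 that ranked 42 from the highest of all genes. WIPI2, the paralog that recruits ATG16L1, lay at -0.15 ± 0.43 over 4 probe sets, which ran from -0.76 to 0.19 and so gave no single direction. WDR45B and WDR45, WIPI family genes that were not on the list, were lower. WDR45B differed by -0.76 over 1 probe set, or 1.69-fold, and WDR45 by -0.49 ± 0.068 over 2. ATG9A, a lipid scramblase, differed by 0.27 over 1 probe set. The lipid transfer proteins ATG2A and ATG2B lay at -0.085 (1 probe set) and 0.020 ± 0.27 (4 probe sets). The group's median was 0.020.

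**Figure D2:**
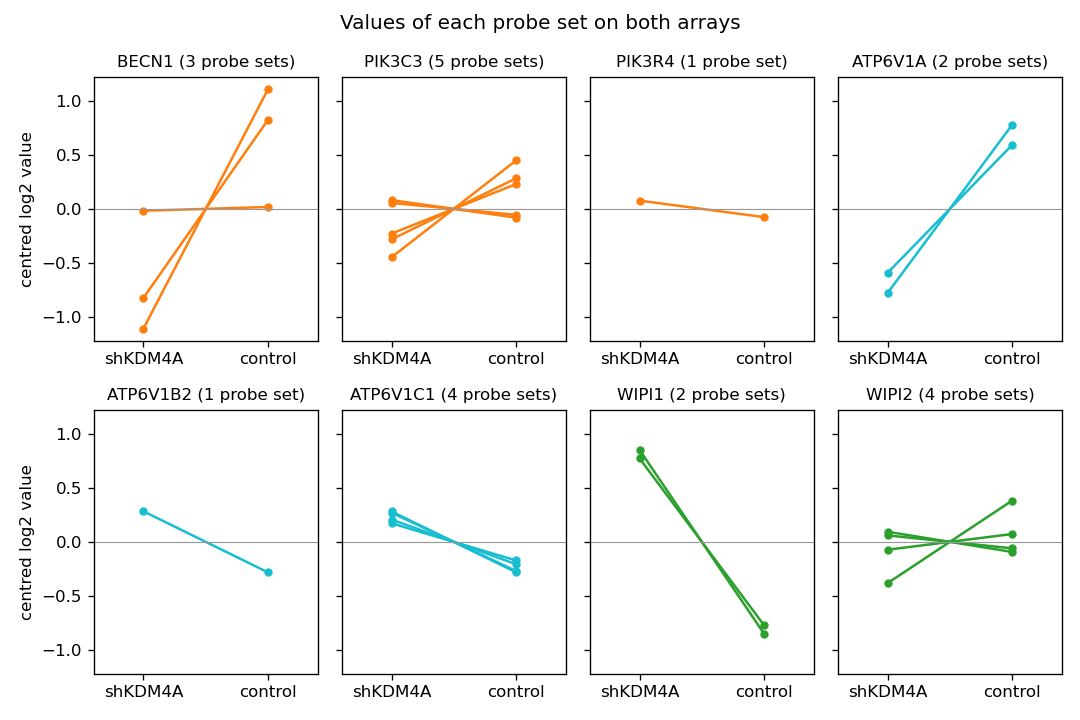
Centred log2 value of each probe set on the shKDM4A array (left) and the control array (right) for BECN1, PIK3C3, PIK3R4, ATP6V1A, ATP6V1B2, ATP6V1C1, WIPI1 and WIPI2. Lines join the values of 1 probe set, which mirror each other because the values are centred, and 1 of the 3 BECN1 lines is nearly flat.

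Conjugation genes lay on both sides of 0, with 5 of 10 above it, where 53.7% of all genes were. They had a median of 0.056 and a range of -0.55 to 0.85. The extremes were 2 proteases of 1 family, which trim ATG8 proteins before conjugation and release them from membranes afterwards. ATG4A had 0.42 on the shKDM4A array and -0.42 on the control array, which made it 1.80-fold higher in shKDM4A cells. ATG4C had -0.28 on the shKDM4A array and 0.28 on the control array, which made it 1.47-fold lower, short of 1.5-fold. Each rests on 1 probe set. Their paralogs ATG4B (0.13 ± 0.068, 3 probe sets) and ATG4D (0.29, 1 probe set) lay nearer to 0.

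The enzymes and substrates of the conjugation reaction showed no common direction. ATG7, which activates both ATG12 and ATG8 proteins, lay at -0.28 ± 0.29 over 4 probe sets. ATG3, which hands ATG8 proteins to lipid, lay at -0.18 ± 0.13 over 2, and ATG10, which hands ATG12 to ATG5, at -0.014 ± 0.26 over 4. ATG12, the ubiquitin-like modifier, lay at 0.30 ± 0.53, with probe sets at 0.44, -0.29 and 0.75, and so differed by less than its own probe sets did among themselves. ATG5, the acceptor of ATG12, lay at -0.20 ± 0.41 over 3 probe sets and ATG16L1, which brings the conjugate to the membrane, at 0.19 ± 0.36 over 2.

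All 4 ATG8 genes on the list lay above 0, where 53.7% of all genes did, with a median of 0.36. GABARAPL1 had 0.16 and 0.24 on the shKDM4A array and -0.16 and -0.24 on the control array, a difference of 0.41 ± 0.11. GABARAPL2 differed by 0.40 and GABARAP by 0.32, each over 1 probe set. MAP1LC3B, the family member most used to count autophagosomes, lay at 0.035 ± 0.038 over 2 probe sets. The 3 genes of the GABARAP branch were thus 1.25-fold to 1.32-fold higher, and MAP1LC3B was 1.02-fold higher. None reached 1.5-fold.

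The 3 cargo receptors went different ways. OPTN, which binds ubiquitin on damaged mitochondria and bacteria, had 0.15 and 0.39 on the shKDM4A array, against -0.15 and -0.39 on the control array, a difference of 0.54 ± 0.34. NBR1, which gathers ubiquitinated proteins and peroxisomes, was lower on all 4 probe sets. They read between -0.32 and -0.19 on the shKDM4A array and between 0.19 and 0.32 on the control array, for a difference of -0.50 ± 0.11, or 1.41-fold lower. SQSTM1, also called p62, lay at 0.17 ± 0.16, with all 5 probe sets above 0 but only 1 above 0.15.

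The TFEB family likewise showed no shared direction. TFEB itself had 0.088 and 0.50 on the shKDM4A array, against -0.088 and -0.50 on the control array. The difference was 0.59 ± 0.59, or 1.51-fold higher, and 1 probe set (1.01) carried most of it while the other read 0.18. With the median difference of all probe sets subtracted, TFEB lay at 0.58 and no longer reached 1.5-fold. TFE3 lay at 0.033 ± 0.087 over 4 probe sets. MITF, the melanocyte factor of the family, was lower on both probe sets (-0.32 and -0.39), with a mean of -0.36 ± 0.053.

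Genes of the lysosomal membrane and the cathepsin proteases lay mostly below 0, with 4 of 5 below it, where 46.3% of all genes were. Their median was -0.19. CTSB, a cysteine protease, was lower on every probe set. Its 5 values ran from -0.41 to -0.27, with a median of -0.30, on the shKDM4A array and mirrored these on the control array, for a difference of -0.63 ± 0.12, or 1.55-fold lower. LAMP2, a glycosylated membrane protein, a splice form of which is the receptor of chaperone-mediated autophagy, was lower on all 4 probe sets, which ran from -0.95 to -0.24. Its mean was -0.57 ± 0.30, or 1.48-fold lower. LAMP1, the related membrane protein, lay at 0.016 ± 0.052 over 4 probe sets. CTSD, an aspartic protease, differed by -0.19 and CTSL, another cysteine protease, by -0.082, each over 1 probe set.

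The V-ATPase genes lay above 0 with 1 exception, the gene of the subunit that hydrolyses ATP. The pump has a membrane sector, V0, which carries protons, and a cytosolic sector, V1, which burns ATP. Of 12 measured genes, 11 lay above 0 (91.7%), with a median of 0.29 over the 12, where 53.7% of all genes lay above 0 and their median was 0.020. The other 40 members had a median of 0.027, and 55% of them lay above 0. None of the 11 reached 1.5-fold on the mean over all probe sets. ATP6V1A lay at -1.37. These are counts and medians on 1 array a group, with no test between them. With shared probe sets (_s_at and _x_at) left out, the V-ATPase median was 0.14 over 11 genes, while ATP6V0E1 lay at 0.68 and passed 1.5-fold.

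All 5 V0 genes were above 0, with a median of 0.33. ATP6V0B, a proteolipid of the rotating ring, had 0.24 on the shKDM4A array and -0.24 on the control array, a difference of 0.48 over 1 probe set. ATP6V0E1, a small membrane subunit, lay at 0.40 ± 0.26, with 6 of 7 probe sets between 0.26 and 0.86 and the last next to 0. ATP6V0A1, the large subunit through which protons pass, lay at 0.33 on both of its probe sets. ATP6V0D1, which couples the ring to V1, differed by 0.12 over 1 probe set, and ATP6V0C, the main ring proteolipid, by 0.12 ± 0.030 over 2.

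In V1, ATP6V1A stood apart from its partners. It encodes the A subunit, which holds the catalytic site. Its 2 probe sets read -0.78 and -0.59 on the shKDM4A array, against 0.78 and 0.59 on the control array. Both were at least 2-fold lower, at -1.55 and -1.18, and the mean of -1.37 ± 0.26 ranked 116 from the lowest of all genes. ATP6V1B2, the B subunit that alternates with A in the ATPase head, had 0.28 on the shKDM4A array and -0.28 on the control array. That is a difference of 0.56, or 1.48-fold higher, over 1 probe set. ATP6V1C1, which links head and stalk, was higher on all 4 probe sets (0.34 to 0.56, mean 0.46 ± 0.10), and ATP6V1G1, of the outer stalk, on both (0.50 and 0.52). ATP6V1H, a regulatory subunit, lay at 0.24 ± 0.40 over 3 probe sets, ATP6V1D, of the central shaft, at 0.17 ± 0.15 over 4 and ATP6V1E1, of the outer stalk, at 0.073 over 1. Over the V-ATPase genes other than ATP6V1A, which was left out after its values were seen, 25 of 28 probe sets read above 0. Over all members, these 28 included, 72 of 128 probe sets did. The share over all probe sets of the arrays was not counted. Their median difference was 0.014, and 53.7% of all genes lay above 0. ATP6V0E1 alone gave 7 of the 28, and probe sets of 1 gene are not separate readings of the pump.

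**Figure D3:**
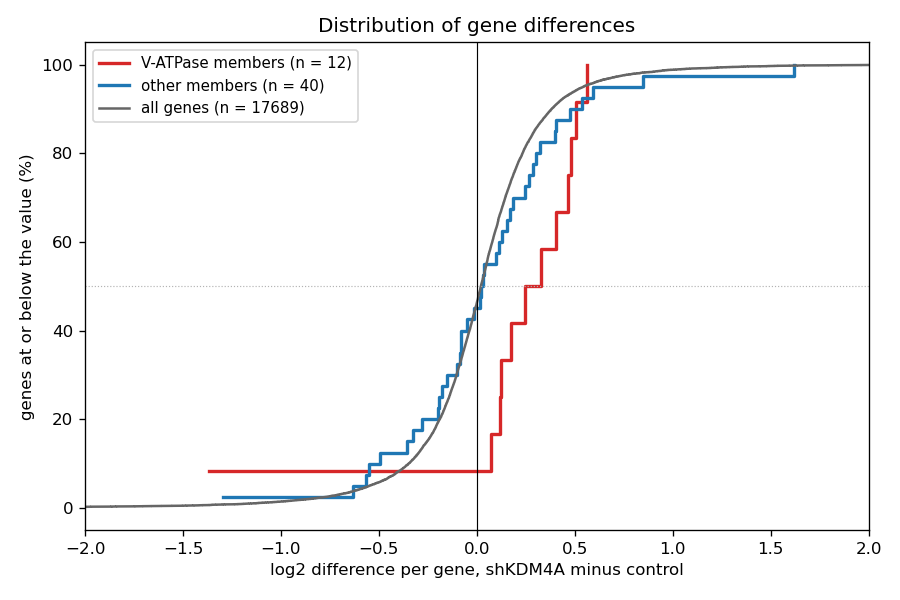
Share of genes (%) at or below each log2 difference, shKDM4A minus control, for the 12 V-ATPase genes, the other 40 members and all 17689 genes, with the axis limited to differences between -2 and 2. The V-ATPase line starts with ATP6V1A at -1.37 and then stays right of the line of all genes between 0 and 0.56, while the line of the other members crosses 0 close to that of all genes.

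The sequences below show where the letters CACGTG, the palindromic core that TFEB and its relatives bind, stand in front of V-ATPase and lysosomal genes. Promoter windows of 300 bases (250 before the start site and 50 after) from RefSeq, build GRCh38.p14, were held for 43 of the 53 genes, in 55 windows. The 10 genes without a window, ATP6V1A among them, were not searched. CACGTG was searched on both strands, which are alike for a palindrome, and occurred in 7 of the 55 windows (12.7%), where 7.26% of all 35116 windows had it. Those 7 genes were ATP6V1G1, ATP6V0D1, ATP6V0B, CTSD, LAMP1, ATG14 and ATG3. The longer form known as the CLEAR element, CACGTG with GT directly before it and AC directly after it, occurred in 1 window, that of ATP6V1G1, where 0.353% of all windows had it. The letters TGATGNAA, a form of the element bound by the stress factor ATF4, searched on both strands, occurred in none of the 55 windows, where 3.62% of all windows had them. Printed 5′ to 3′ on the strand of the gene, with CACGTG in capitals and ending before the start site, are stretches of 5 of these promoters, and for WIPI1, the highest member, the last 100 bases before its start.
ATP6V1G1 (chr9:114587684-114587743, plus strand): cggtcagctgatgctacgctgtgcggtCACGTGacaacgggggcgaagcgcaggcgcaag
ATP6V0D1 (chr16:67481184-67481243, minus strand): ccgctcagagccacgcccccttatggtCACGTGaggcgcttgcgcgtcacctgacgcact
ATP6V0B (chr1:43974876-43974935, plus strand): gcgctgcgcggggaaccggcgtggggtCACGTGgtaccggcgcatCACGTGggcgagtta
CTSD (chr11:1763942-1764001, minus strand): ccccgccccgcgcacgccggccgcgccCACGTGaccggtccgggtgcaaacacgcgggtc
LAMP1 (chr13:113297184-113297238, plus strand): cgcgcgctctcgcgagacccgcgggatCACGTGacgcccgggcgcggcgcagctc
WIPI1 (chr17:68457497-68457596, minus strand): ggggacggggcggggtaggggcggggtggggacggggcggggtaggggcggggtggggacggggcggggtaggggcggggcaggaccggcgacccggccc

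In the 3 V-ATPase promoters the first printed CACGTG starts 57 to 59 bases before the start site, in CTSD it starts 47 bases before and in LAMP1, whose window held further copies, 28 bases before. ATP6V0B has a second copy 39 bases before its start. The 3 V-ATPase genes with the core differed by 0.51 (ATP6V1G1), 0.48 (ATP6V0B) and 0.12 (ATP6V0D1), and the other 4 genes with it by 0.096 (ATG14), 0.016 (LAMP1), -0.18 (ATG3) and -0.19 (CTSD). The genes with the core thus lay on both sides of 0. The WIPI1 window, with the largest difference, held none of the 3 sets of letters. A match of letters is a description and shows no binding in these cells.

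Genes of the same pathways outside the list were taken from 5 further lists. Of 22 other autophagosome and fusion genes, all measured, 10 lay above 0 (45.5%), where 53.7% of all genes did. In the lower direction 1 passed 2-fold (4.55%), where 1.44% of all genes did. The median of the 22 was -0.030. The gene past 2-fold was YKT6, a SNARE protein of autophagosome fusion, with -0.68 and -0.48 on the shKDM4A array, against 0.68 and 0.48 on the control array, a difference of -1.16 ± 0.28. STX17 and SNAP29, SNARE proteins of the same step, lay at -0.41 ± 0.28 over 5 probe sets and -0.0059 ± 0.099 over 3, and VAMP8 at 0.32 over 1.

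Of 12 other cargo receptors and their kinase, 8 lay above 0 (66.7%), where 53.7% of all genes did. None of the 12 was 2-fold apart, and their median was 0.16. TBK1, the kinase that phosphorylates OPTN and SQSTM1, differed by 0.76 over 1 probe set. CCPG1, a receptor for endoplasmic reticulum, differed by -0.76 over 1, and RETREG1, another receptor for that membrane, by 0.75 ± 0.13 over 4. TEX264, again a receptor for that membrane, lay at 0.16 ± 0.023 over 2.

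The V-ATPase genes not on the list, other subunits, accessory subunits and assembly factors, did not lie above 0 as a group. Of 19 genes, 16 were measured and 9 lay above 0 (56.25%), where 53.7% of all genes did. The median of the 16 was 0.031. ATP6V0E2 (0.44), ATP6AP1, an accessory subunit (0.42), and ATP6V1G3 (0.40) lay farthest from 0, each over 1 probe set, and none reached 1.5-fold.

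Of 40 other lysosomal enzymes and membrane proteins, 36 were measured and 25 lay above 0 (69.4%), with a median of 0.13 and none 2-fold apart. SLC17A5, the sialic acid exporter, had 0.35 and 0.60 on the shKDM4A array, against -0.35 and -0.60 on the control array, a difference of 0.94 ± 0.35. NEU1, a sialidase, differed by 0.81 and CTSO, a cathepsin, by -0.69, each over 1 probe set. Of all genes, 53.7% lay above 0. Several proteases of this list lay below 0 as CTSB did, among them LGMN (-0.47, 1 probe set), CTSC (-0.36 ± 0.33, 2) and CTSZ (-0.34 ± 0.17, 2). CTSK lay at -0.047 over 1 probe set. Others lay above 0, namely TPP1 (0.43 ± 0.37, 4 probe sets), CTSF (0.19, 1), CTSS (0.11 ± 0.17, 2), CTSH (0.045, 1) and CTSA (0.035, 1). The proteases thus had no common direction.

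Genes that control the pathway upstream, of mTORC1, AMPK and their sensors, had a median of 0.092 over 35 of 37 measured genes, with none 2-fold apart. Of the 35, 23 lay above 0 (65.7%), where 53.7% of all genes did. PRKAG2, a regulatory subunit of AMPK, lay at 0.67 ± 0.40 over 4 probe sets. AKT1S1, an inhibitory subunit of mTORC1, lay at -0.66 ± 0.35 over 2, and SESN1, a p53 target that restrains mTORC1, at 0.56 over 1. MTOR itself lay at 0.26 ± 0.40 over 2 probe sets and FLCN, which controls the phosphorylation of TFEB, at 0.047 ± 0.23 over 4.

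**Figure D4:**
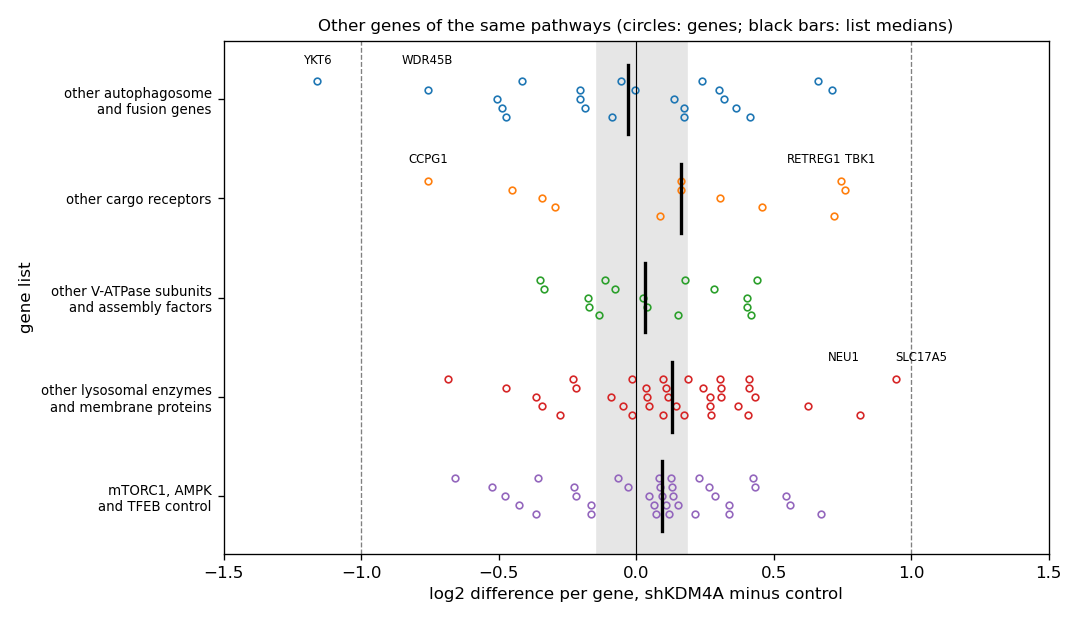
Log2 difference per gene, shKDM4A minus control, in 5 lists of genes of the same pathways outside the 53, with circles for genes, black bars for list medians (-0.030 to 0.16), a grey band for the quartiles of all genes and dashed lines at 2-fold. Only YKT6 (-1.16) lies past 2-fold.

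Agreement between probe sets bears on how far each difference can be read. Of the 52 members, 18 had 1 probe set and 34 had 2 or more. In 20 of these 34 (58.8%) the probe sets shared 1 direction, where 50.3% of all genes with several probe sets did so. WIPI1, ATP6V1A, CTSB, NBR1, LAMP2 and ATP6V1C1 were among the 20. No member had probe sets 1.5-fold apart from 0 on both sides.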

How the data were processed

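RMA is named without a version per the submitters' processing notes, and the deposited values were taken to be on the log2 scale. The 2 values of every row sum to 0 within 1e-05, so the authors deposited values centred on the mean of both arrays; base 2 was assumed, the scale of RMA output. An earlier account of this series also gives the columns as centred. No source used here describes how the centring was done, a filter on probe sets or a genome build. Of 44672 probe sets, 34880 had 1 gene in the platform annotation, of which 34839 matched RefSeq genes by Entrez identifier. Another 1619 had several genes, 8131 were unnamed here and 42 were array controls, and these entered no gene value. The 18 hybridisation spike-in probe sets differed by -0.0099 ± 0.045 (SD). Differences were called by size, 2-fold and 1.5-fold, with no test, and the calculation was tested on simulated data. The members, lists, groups and motifs were chosen with earlier results of these data known. Values are given for members at least 1.5-fold apart, for at least the 2 farthest from 0 in each of 10 groups, and for the genes farthest from 0 in the other lists (3, or all past 2-fold), with the remaining members more briefly. Values of a few other genes (MAP1LC3A, MAP1LC3C, WDR45, WDR45B, ACP3, STX17, SNAP29, VAMP8, TEX264, LGMN, CTSC, CTSZ, CTSK, TPP1, CTSF, CTSS, CTSH, CTSA, MTOR, FLCN) were added for their role, after their values were seen. Alternatives changed the probe sets used, the summary over probe sets, the centring and the size rule. Python 3.11.15, numpy 2.4.6, pandas 2.3.3 and matplotlib 3.10.9 were used.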

Additional observations from a re-analysis of the deposited data

How the results depend on the processing

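No paired analysis was possible because each group had 1 array, and no array could be left out. A median counted as moved when it changed by more than the pooled spread between probe sets divided by the square root of the number of genes. With shared probe sets (_s_at and _x_at) left out, 41 members were left, 1 instead of 2 members was at least 2-fold lower, as BECN1 then lay at -0.034, 4 members were 1.5-fold higher, as ATP6V0E1 then lay at 0.68, 2 were 1.5-fold lower, and medians became 0.11 for the ULK complex, 0.19 for membrane expansion, -0.10 for conjugation, -0.37 for lysosomal membrane and cathepsins and 0.14 for all V-ATPase genes. Among the 34 members with 2 or more probe sets, 19 lay above 0, and medians were 0.027 for all members, -0.81 for the PI3-kinase complex (2 genes) and -0.57 for lysosomal membrane and cathepsins. At 3-fold, 0 members were lower. Signs changed for 2 of 41 members when shared probe sets were left out (ATG2B -0.073, WIPI2 0.19), and for none of 52 with the median over probe sets or with the median difference of all probe sets subtracted. That subtraction took TFEB to 0.58 and left 2 members 1.5-fold higher.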

Other observations

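Probe sets assigned to several genes entered no value above, and 2 of them include a member. The probe set shared by ATP6V1F and an uncharacterised locus read 0.097 on the shKDM4A array and -0.097 on the control array, a difference of 0.19. The probe set shared by GABARAPL1 and GABARAPL3 read 0.19 on the shKDM4A array and -0.19 on the control array, a difference of 0.38, near the 0.41 of GABARAPL1 from its own probe sets.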
